A study of Mus musculus with 12 samples.

Results

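LINC01134 is a long intergenic non-coding RNA, a transcript that is not translated into protein. U2OS cells overexpressing it were compared with blank U2OS cells, using all genes of the deposited table, and 6 of the 12 libraries of the series entered the comparison: 3 of OE-LINC01134 cells and 3 of blank cells. U2OS is a human cell line derived from an osteosarcoma, a malignant bone tumor. The other 6 libraries came from U2OS cells transfected with the siRNAs siSRSF1-2 or siSRSF1-3, which target the splicing factor SRSF1, and they were used only to give levels and direct differences. The labels name no genotype, treatment or time beyond these group names. No empty-vector control is named, and the vector, the selection and the time of overexpression are not given in the sources used here, nor whether the cells were a clone or a pool. A response to the delivery or selection therefore cannot be told apart from a response to LINC01134. The labels give mouse as the organism, but the genes carry human identifiers and the cell line is human, so the libraries were treated as human.

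Long non-coding RNAs can act in the nucleus or the cytoplasm, by binding proteins, other RNAs or chromatin, and some act on the genes next to their own locus. SR proteins such as SRSF1 bind exons and steer the choice of splice sites. Osteosarcoma cells keep part of the program of bone-forming cells, including a secreted matrix of collagens and proteoglycans and the enzymes that remodel it. Expression was measured as FPKM, fragments scaled to gene length and library size. A gene was called higher or lower when limma gave a Benjamini-Hochberg adjusted p under 0.05 together with an absolute log2 fold change over 1. Fold changes are OE-LINC01134 minus blank on the scale of log2(FPKM + 0.1), which understates the change of low genes.

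The 6 libraries held between 26237763 and 30482881 reads on genes. Blank 1 and OE-LINC01134 2 stood apart from the other libraries of their groups. Blank 2 and blank 3 correlated at 0.974 across genes, while blank 1 correlated with them at 0.935 and 0.937. OE-LINC01134 1 and 3 correlated at 0.977, while OE-LINC01134 2 correlated with them at 0.941 and 0.940. The libraries that stood apart were closer to each other, at 0.952, than either was to the rest of its own group. Their LINC01134 levels, 0.791 and 1279 FPKM, were those of their labelled groups. The labels give no batch, and whether a batch or a mix-up of libraries set these 2 apart was not tested. Of the markers of mesenchymal and bone tumor cells given here, VIM, COL1A1, SPARC, RUNX2, CDH2 and THY1 were detected in each of the 6 libraries, whereas COL1A2 stayed at or below 0.0131 FPKM and NT5E was between 0.0533 and 1.33 FPKM. Among markers of other cells, the summed FPKM of 12 blood and immune markers was 6.59 to 9.28 in blank and 7.96 to 8.11 in OE-LINC01134 libraries, with HBB leading and CD3E at 0, and that of 8 endothelial markers was 1.34 to 3.63 and 1.13 to 1.44. The 12 neuron, fat and muscle markers summed to 5.41 to 7.71 in blank and 4.54 to 5.37 in OE-LINC01134 libraries, with ADIPOQ at 0, and the 12 epithelial markers to 109 to 189 and 69.5 to 154, led by KRT18 and KRT8.

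**Figure D1:**
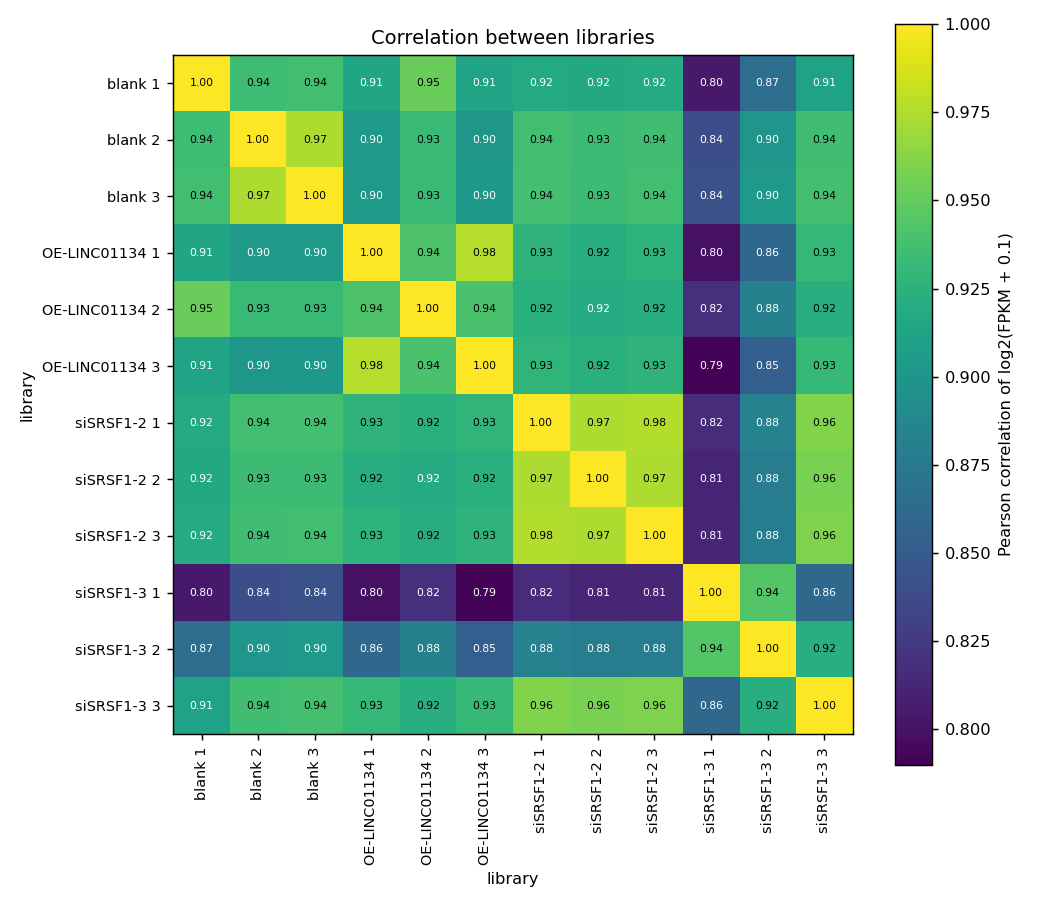
Pearson correlation of log2(FPKM + 0.1) over the 17538 tested genes between each pair of the 12 libraries, shown by colour and number. Blank 2 and 3 (0.97) and OE-LINC01134 1 and 3 (0.98) form close pairs, and blank 1 and OE-LINC01134 2 are nearer to each other (0.95) than to their groups.

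LINC01134 was the gene with the largest change. The table places it (ENSG00000236423) on the plus strand of chromosome 1 from 3900372 to 3917225, and the genome build of these coordinates is not given in the sources used here. Its FPKM was 0.791, 0.519 and 0.497 in blank cells and 891, 1279 and 878 in OE-LINC01134 cells. The groups were far apart, and the 6 siRNA libraries lay near the blank level, between 0.548 and 1.11 FPKM. The means were 0.602 ± 0.164 (SD, n = 3) in blank and 1016 ± 228 (SD, n = 3) in OE-LINC01134 cells, a log2 fold change of 10.50 (SE 0.22, limma adjusted p = 1.18e-05). An exact two-sided permutation test gave p = 0.1, the smallest value that 3 against 3 libraries allow. In OE-LINC01134 cells the transcript took 0.381%, 0.532% and 0.377% of the reads on genes and ranked between 22 and 25 of the 58735 listed genes, against ranks of 15201 to 17742 in blank cells.

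With all 6 libraries the genes around the LINC01134 locus gave no call, while 0.257% of all genes were called higher and 0.593% lower. Of 19 neighbours on the short arm of chromosome 1, 16 passed the filter on low values, and none was called in either direction. Their median log2 fold change was -0.03, against 0.05 over all genes tested. At an unadjusted p under 0.05 with a log2 fold change beyond 1, 5.0% of all genes were lower and 2.45% higher. Of the 16 neighbours, 1 was lower at these thresholds. That gene was MEGF6, which encodes a protein with EGF-like repeats, at 1.92, 3.44 and 2.98 FPKM in blank and 0.579, 1.08 and 0.701 in OE-LINC01134 cells (log2 fold change -1.70, SE 0.30, adjusted p = 0.053). DFFB, the nuclease of apoptotic DNA fragmentation, differed by -0.84 (adjusted p = 0.16). The result rested on the libraries kept. Without blank 1 and OE-LINC01134 2 the median of these neighbours was -0.28, against 0.08 over all genes. MEGF6 (-2.16, adjusted p = 0.000748) and DFFB (-1.07, adjusted p = 0.0116) then both passed. That setting was chosen after the values were seen, and in it 895 of all 17538 genes were called higher and 1551 lower.

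SRSF1, the target of the siRNAs in the rest of the series, was at 35.9, 19.8 and 20.5 FPKM in blank cells and at 31.8, 29.6 and 30.3 in OE-LINC01134 cells. The groups overlapped because blank 1 was the highest of the 6 libraries. The log2 fold change was 0.32 (SE 0.23, adjusted p = 0.40). Without blank 1 and OE-LINC01134 2 it was 0.62 (adjusted p = 0.000592), still short of the fold threshold. None of the 11 SR splicing factors tested was called, with a median of 0.06, and none reached an unadjusted p under 0.05 with a log2 fold change beyond 1. Among all genes tested 0.257% were called higher and 0.593% lower, and 2.45% and 5.0% were past the unadjusted thresholds. In all OE-LINC01134 libraries 3 of the 11 lay above blank and 2 below, against 16.8% and 13.8% of all genes. SRSF11 had the smallest p of the list, at 24.6, 19.8 and 21.1 FPKM in blank and 36.2, 26 and 35.9 in OE-LINC01134 cells (log2 fold change 0.57, adjusted p = 0.10).

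Across the 17538 genes tested, 45 were called higher (0.257%) and 104 lower (0.593%) in OE-LINC01134 cells, of which 30 and 73 are protein coding. The 3 libraries of one group did not overlap with the 3 of the other in any of these 149 genes. Over all genes tested, the OE-LINC01134 libraries all lay above the blank libraries in 16.8% of genes and all below in 13.8%. Before adjustment, 2.45% of genes were higher and 5.0% lower at p under 0.05 and a log2 fold change beyond 1. When each library was rescaled to the same FPKM sum, 83 genes were called higher and 103 lower, so the split between higher and lower depends on the scaling. The counts rested on which libraries were kept. Without blank 1 the calls were 318 higher and 645 lower, and without OE-LINC01134 2 they were 511 and 1029. Without both they were 895 and 1551, which held 44 of the 45 higher and all 104 lower calls. Leaving out blank 2 or 3, or OE-LINC01134 1 or 3, left at most 2 higher and 7 lower calls, LINC01134 among them each time.

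**Figure D2:**
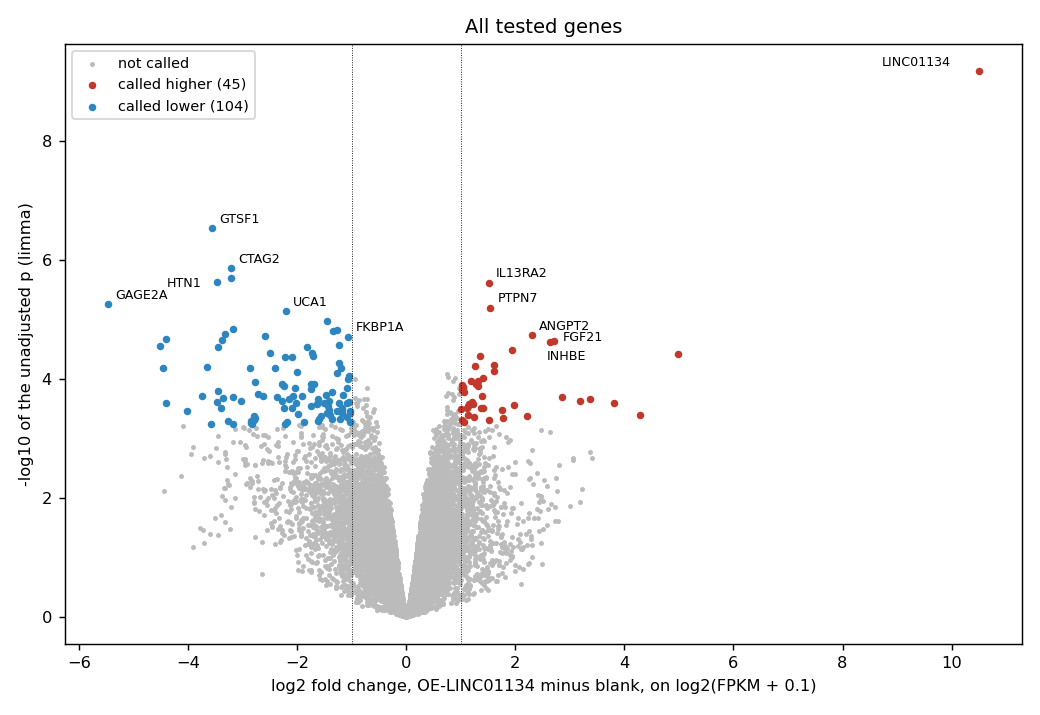
Log2 fold change of each of the 17538 tested genes, OE-LINC01134 minus blank on log2(FPKM + 0.1), against -log10 of the unadjusted limma p. Red points are the 45 genes called higher, blue points the 104 called lower, and LINC01134 lies alone at 10.50.

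Secreted signalling proteins were among the genes that rose most. In bulk RNA, a change per cell and a change in the share of cells that express a gene cannot be told apart. FGF21, a secreted hormone of the fibroblast growth factor family that cells make under metabolic and endoplasmic reticulum stress, was at 6.10, 7.57 and 6.07 FPKM in blank and 55.3, 28.3 and 52.4 in OE-LINC01134 cells. It rose by a log2 fold change of 2.71 (SE 0.27, adjusted p = 0.0199). INHBE, which encodes an activin subunit of the TGF-beta superfamily, was at 3.80, 5.41 and 5.01 FPKM in blank and 36.6, 20.3 and 35.7 in OE-LINC01134 cells, a rise of 2.64 (SE 0.26, adjusted p = 0.0199). In both genes OE-LINC01134 2 had the smallest rise, and it still lay above every blank library. ANGPT2, a ligand of the endothelial receptor TIE2, rose from 0.496, 0.364 and 0.388 to 2.67, 2.06 and 2.59 FPKM (log2 fold change 2.30). IL13RA2, a decoy receptor for interleukin 13, was the most abundant of the protein-coding genes named here as higher, at 33.4, 34.7 and 37.5 FPKM in blank and 107, 92.2 and 104 in OE-LINC01134 cells. Its rise of 1.52 had the smallest SE among them (0.11, adjusted p = 0.00703). The libraries of each group lay close together in this gene.

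Regulators and enzymes followed. HIF3A, a hypoxia-inducible factor subunit, rose from 0.630, 0.252 and 0.161 to 3.11, 2.40 and 3.08 FPKM (log2 fold change 2.86). HMBOX1, a homeobox protein that binds telomeric DNA, rose from 5.52, 5.21 and 5.20 to 18.4, 12.3 and 19.8 FPKM (1.62). PTPN7, a tyrosine phosphatase known from lymphoid cells, rose from 2.19, 2.01 and 1.94 to 5.95, 6.45 and 6.07 FPKM (1.55, adjusted p = 0.0139). The groups were tight in PTPN7, with SE 0.12. FUT1, which makes the H antigen, was at 4.63, 6.99 and 6.41 FPKM in blank and 24.6, 13.9 and 24.2 in OE-LINC01134 cells. CSTA, a cysteine protease inhibitor, was at 22.3, 32.4 and 32.8 FPKM in blank and 94.6, 75.5 and 94.1 in OE-LINC01134 cells, and NFE4, an erythroid transcription factor gene, at 17.6, 12.1 and 11.4 against 57.2, 43.3 and 56.5. All 3 rose, by 1.76, 1.60 and 1.94. The non-coding LYPLAL1-DT (1.98) and CERS3-AS1 (1.51) also rose, and CERS3-AS1 is an antisense gene whose reads may not be separable from those of the opposite strand. The last genes of the 15 were TRBJ2-4 and RNU6-1101P, only 50 and 81 bases long. TRBJ2-4 had 0, 0 and 0 reads in blank and 2, 8 and 5 in OE-LINC01134 cells, and RNU6-1101P had 1, 0 and 0 against 8, 7 and 8, so both rest on at most 8 reads per library.

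The lower gene with the largest change was GAGE2A, a cancer-testis antigen gene. It was at 29.9, 24.8 and 29.8 FPKM in blank and 0.261, 1.18 and 0.464 in OE-LINC01134 cells, a fall with a log2 fold change of -5.46 (SE 0.43, adjusted p = 0.0139). CTAG2, another such antigen, was at 7.67, 11 and 9.27 FPKM against 1.15, 0.848 and 0.775 (-3.20, SE 0.20), and the X-linked XAGE2 (-3.22) and PAGE1 (-3.18) fell as well. GTSF1, a germ cell factor of piRNA silencing, was at 8.27, 10.1 and 10.9 FPKM in blank and 0.834, 0.783 and 0.610 in OE-LINC01134 cells, and had the smallest p after LINC01134 (-3.55, SE 0.18, adjusted p = 0.00255). Over a list of cancer-testis families put together after these values were seen, 6 of the 45 members tested were lower and none higher (GAGE2A, GAGE1, CTAG2, XAGE2, PAGE1 and PAGE5). The median of these 45 was -0.38, and 17 lay below the blank libraries in all OE-LINC01134 libraries while 4 lay above. Among all genes tested 0.593% were called lower, 13.8% lay below and 16.8% above. GAGE copies are nearly identical, so the split of reads between GAGE2A and GAGE1 is uncertain.

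The other lower genes with the largest changes had varied functions. LUM, the collagen-binding proteoglycan lumican, was at 2.97, 4.28 and 4.60 FPKM in blank and 0.207, 0.487 and 0.209 in OE-LINC01134 cells (log2 fold change -3.38, SE 0.33, adjusted p = 0.0199). HTN1, which encodes the salivary peptide histatin 1, was at 27.8, 36.7 and 38.5 FPKM against 2.33, 4.19 and 2.70 (-3.47), and its close relative HTN3, with which it may share reads, fell by 2.21 on the log2 scale. TFF2, a trefoil peptide of the stomach mucosa, fell by 2.79. CDKN2B, which encodes the CDK4 and CDK6 inhibitor p15, was at 2.04, 3.27 and 2.97 FPKM in blank and 0.0340, 0.361 and 0.0517 in OE-LINC01134 cells, a change of -3.73 (SE 0.51, adjusted p = 0.0402). OE-LINC01134 2 kept the highest level of its group in LUM, HTN1 and CDKN2B. The rest of the 15 were C6orf15 (-4.46), the pseudogene PAEPP1 (-4.02), VAT1L (-2.84), RASGEF1A (-2.84), and the non-coding LINC02392 (-4.40) and LINC02296 (-3.17). In both of the last, blank 1 was far below blank 2 and 3: LINC02392 was at 3.38, 15.2 and 15.7 FPKM in blank and 0.338, 0.196 and 0.592 in OE-LINC01134 cells.

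**Figure D3:**
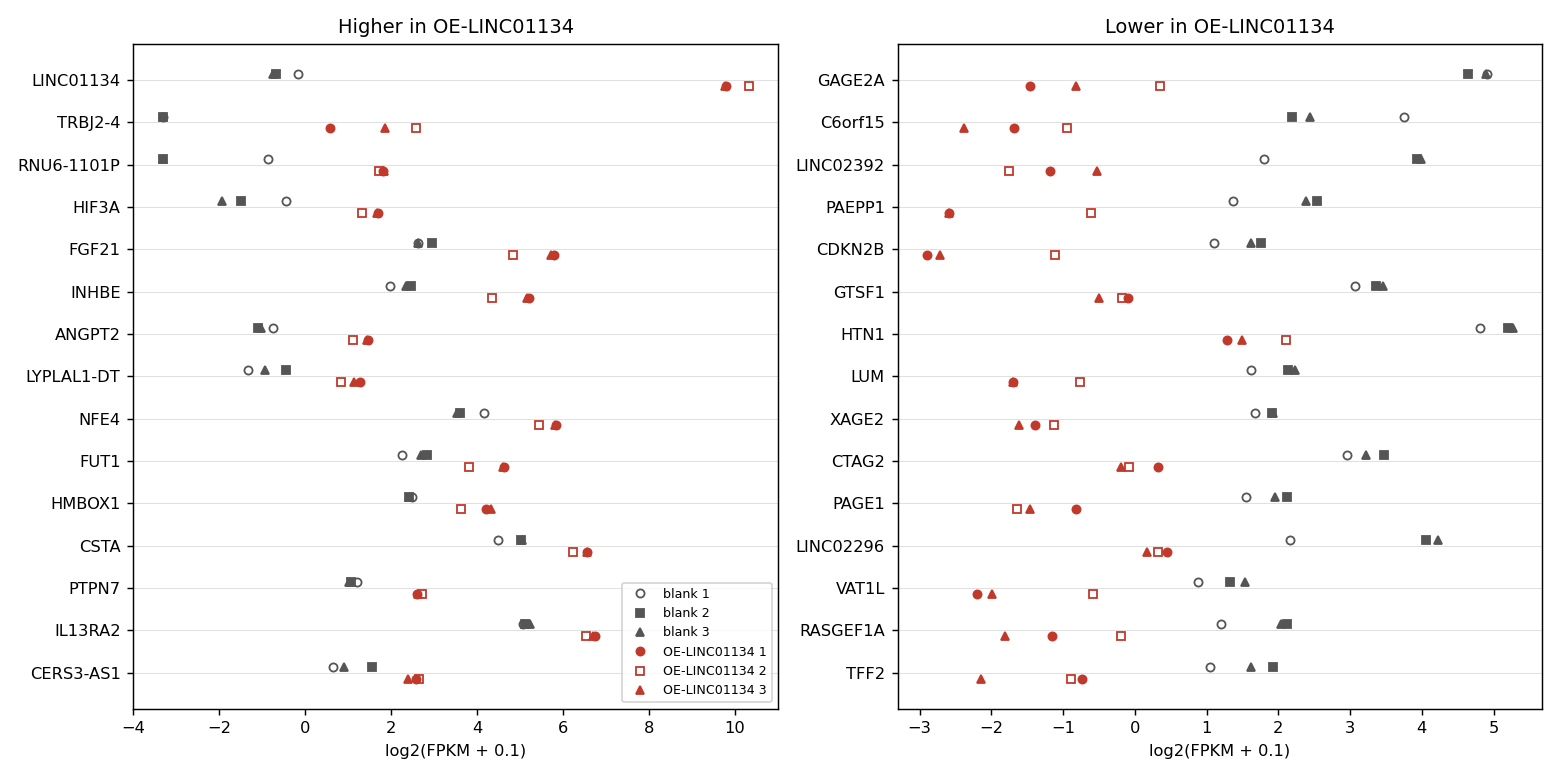
Level of the 15 higher (left) and 15 lower (right) genes in each of the 3 blank (grey) and 3 OE-LINC01134 (red) libraries, as log2(FPKM + 0.1). Open symbols are blank 1 and OE-LINC01134 2, the libraries that stood apart, and in no gene do the grey and red points overlap.

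The OE-LINC01134 libraries were also compared directly with the siRNA libraries, in which LINC01134 stayed low. Against siSRSF1-2, 2.35% of genes tested were called higher and 4.33% lower in OE-LINC01134 cells, and against siSRSF1-3 1.34% and 2.1%. Of the 45 genes called higher against blank, 17 were also higher than in siSRSF1-2 and 11 than in siSRSF1-3 cells. Of the 104 called lower, 71 and 41 were also lower. The same OE-LINC01134 libraries entered these comparisons and the one with blank, so such overlap was favoured in advance. GAGE2A (-5.17 and -6.11), GTSF1 (-3.19 and -4.15) and HTN1 (-3.51 and -3.72) were lower than in either siRNA group by the same criteria, and INHBE (2.28 and 1.98) and HIF3A (2.32 and 2.24) were higher. ANGPT2, in contrast, was lower in OE-LINC01134 than in siSRSF1-2 cells (-1.02, adjusted p = 0.00281) and near the siSRSF1-3 level (0.02, adjusted p = 0.95). PTPN7 was at 5.88 to 6.01 FPKM in siSRSF1-2 and 4.57 to 5.71 in siSRSF1-3 cells, so that OE-LINC01134 cells differed from them by 0.05 (adjusted p = 0.61) and 0.25 (adjusted p = 0.31). CCL2, called lower against blank, likewise differed by -0.06 (adjusted p = 0.93) and 0.11 (adjusted p = 0.89). FGF21 was 2.82 higher than in siSRSF1-2 cells, and 0.89 higher than in siSRSF1-3 cells without passing the test (adjusted p = 0.12). IL13RA2 (0.41, adjusted p = 0.30), FUT1 (0.45, 0.28), CSTA (-0.36, 0.50) and NFE4 (-0.29, 0.52) did not pass against siSRSF1-3 cells either. Against siSRSF1-2 cells IL13RA2 (1.22), FUT1 (1.51) and CSTA (1.37) were higher, and NFE4 (0.86) fell short of the fold threshold. The siSRSF1-3 libraries correlated with each other at only 0.861 to 0.944.

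Of the 45 genes called higher, 13 lay on chromosome 7 between 90 and 110 Mb, a stretch that was picked out after the values were seen and is described without a test. It holds 208 tested genes, of which 187 had a log2 fold change above 0, with a median of 0.76. In 126 of them (60.6%) all OE-LINC01134 libraries lay above all blank libraries, against 16.8% of all genes. None of the 208 was called lower. The genes of chromosome 7 before this stretch (423 tested) had a median of -0.05 with 0 higher and 5 lower calls, and those after it (210 tested) a median of 0.09 with 1 higher call. The 11 tested genes of the 5 Mb just before it had a median of 0.70, and the 11 genes just after it one of -0.03. Outside the stretch, 32 higher and 104 lower calls remained.

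The genes called in this stretch act in several processes. SMURF1, a ubiquitin ligase for SMAD proteins, was at 15.3, 11 and 10.8 FPKM in blank and 28.1, 24.4 and 29 in OE-LINC01134 cells (1.15, SE 0.17, adjusted p = 0.0403). TRIM4, another ubiquitin ligase, rose by 1.27, CPSF4, a subunit of the complex that cleaves and polyadenylates mRNA, by 1.05, ORC5, a subunit of the origin recognition complex, by 1.18, and FIS1, which acts in mitochondrial fission, by 1.05. CUX1, BAIAP2L1, PRKRIP1, CASD1, ZSCAN21, NFE4 and the pseudogene PMS2P1 rose too, as did ENSG00000226744, which is listed by identifier. In SMURF1 blank 1 was above blank 2 and 3, and this held for the stretch as a whole. Set against the mean of blank 2 and 3, the median level of its genes on the log2 scale was 0.47 in blank 1, and 0.996, 0.928 and 0.973 in the OE-LINC01134 libraries. It was 0.50, 0.49 and 0.51 in the siSRSF1-2 and 0.54, 0.48 and 0.49 in the siSRSF1-3 libraries. The OE-LINC01134 libraries were thus the highest of the 12, blank 2 and 3 the lowest, and blank 1 lay at the level of the siRNA libraries.

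**Figure D4:**
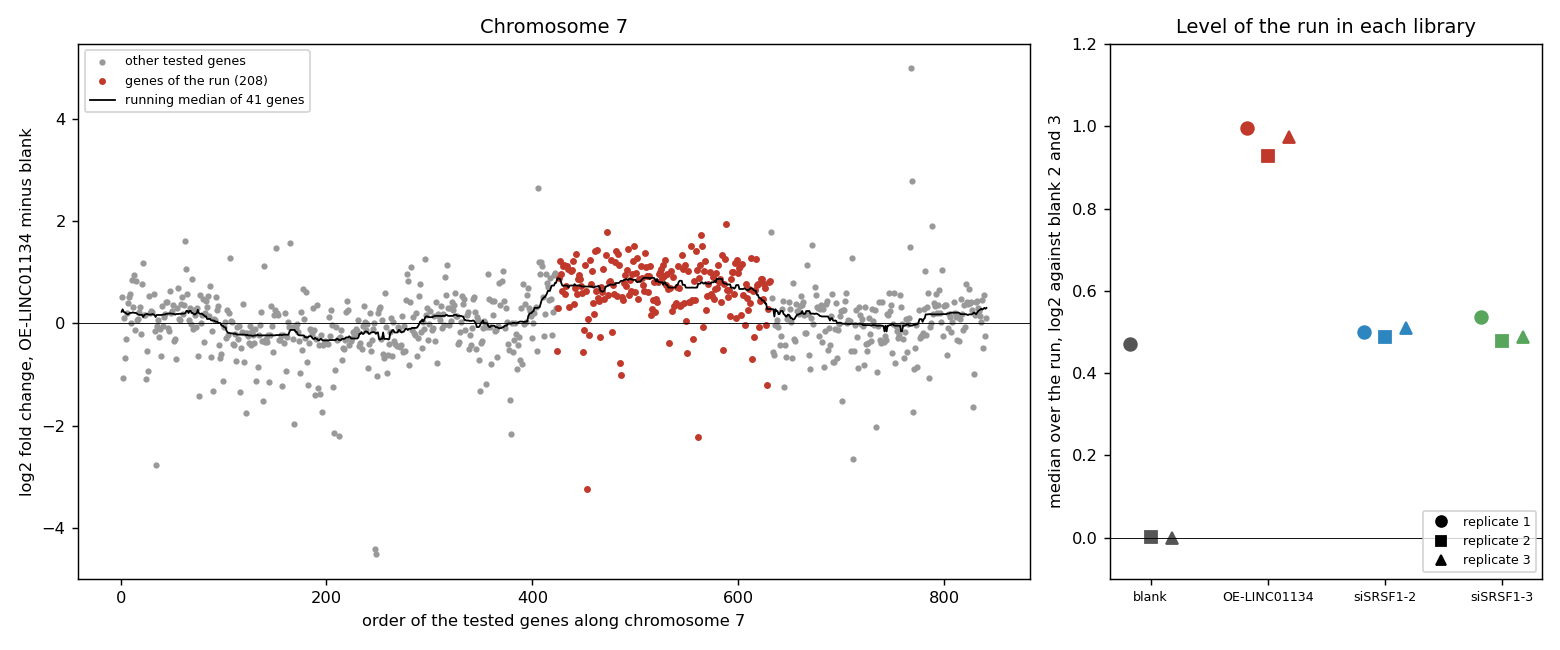
Left, log2 fold change (OE-LINC01134 minus blank) of each tested gene in its order along chromosome 7, with the 208 genes between 90 and 110 Mb in red and a running median of 41 genes in black. Right, median level of these 208 genes in each of the 12 libraries on the log2 scale, relative to the mean of blank 2 and 3: near 1 in OE-LINC01134, near 0.5 in blank 1 and the siRNA libraries.

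The level within the stretch was not uniform in every group. In its 4 windows of 5 Mb, the OE-LINC01134 libraries had medians of 0.69 to 1.12 and blank 1 of 0.32 to 0.57. In siSRSF1-3 1 the medians ran from -0.13 in the first window to 0.83 in the third. Over the whole genome, the 412 windows with at least 15 tested genes had medians from -0.45 to 0.80, and 5 were above 0.5. The lowest median, -0.45, was that of the mitochondrial genome, which was counted as a window. The 4 windows of the stretch were the highest, and outside it only the window from 120 to 125 Mb of chromosome 3 (37 genes, median 0.52) was above 0.5, where CSTA and HCLS1 were called higher. On the lower side, 4 of the 47 tested genes between 35 and 40 Mb of chromosome 6 fell, CCDC167, GLO1, KCNK5 and DAAM2, with a window median of -0.43 in which the OE-LINC01134 libraries lay at -0.45, -0.53 and -0.34, and blank 1 at -0.11. DNA copy number was not measured in these libraries.

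Matrix proteases and collagen chains had the lowest medians among the gene lists. The collagen chains had a median log2 fold change of -0.79 over 21 tested genes, and only COL11A1, a fibrillar chain of cartilage, was called lower, at 2.83, 5.27 and 5.31 FPKM in blank and 0.869, 1.27 and 0.877 in OE-LINC01134 cells (-2.01, adjusted p = 0.0402). The matrix proteases and their inhibitors had a median of -0.87 over 32 genes, with none called. Of these, 13 were lower at an unadjusted p under 0.05 (here and in the other lists with a log2 fold change beyond 1). In 14 all OE-LINC01134 libraries lay below blank. Among all genes tested these shares were 5.0% and 13.8%. MMP2, a gelatinase, was at 39.8, 54.2 and 55.1 FPKM against 14.6, 25.5 and 14.5 (-1.48, SE 0.25, adjusted p = 0.0502, just above the threshold). Among 44 matrix glycoproteins and proteoglycans (median -0.45), LUM and MFAP5, a microfibril protein, fell. No member of these 3 lists was called higher. OE-LINC01134 2 lay nearer to blank in them, with medians above the other OE-LINC01134 libraries by 0.79 for the proteases, 0.64 for the collagens and 0.61 for the glycoproteins. The siRNA groups were below blank as well, with medians in siSRSF1-2 and siSRSF1-3 cells of -0.60 and -0.93 for the proteases, -0.56 and -0.76 for the collagens and -0.74 and -0.70 for the glycoproteins, from comparisons that share the blank libraries. Integrins and laminins (median -0.25 over 20) and mesenchymal factors (median -0.34 over 16) gave no call. At an unadjusted p under 0.05, 5 genes were lower in either list, as were 8 collagen chains and 6 matrix glycoproteins and proteoglycans. None of these 4 lists held a higher gene at that p. Among all genes tested 5.0% were lower and 2.45% higher. SNAI2, a repressor of epithelial genes, was at 3.32, 6.68 and 7.11 FPKM against 1.17, 1.87 and 1.11 without passing the test (-1.93, adjusted p = 0.052).

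Bone and contractile genes gave single calls. ALPL, the alkaline phosphatase of mineralizing osteoblasts, fell from 5.30, 5.73 and 5.94 to 1.21, 2.22 and 1.09 FPKM (-1.91, SE 0.26, adjusted p = 0.0402) and was the only called gene among 13 osteoblast genes (median -0.44). RUNX2, the master regulator of that lineage, was at 3.58, 3.35 and 3.71 FPKM against 1.65, 2.07 and 1.55, with an adjusted p of 0.0486 and a log2 fold change of -0.98, just short of the fold threshold. The groups of both genes were well separated. CNN1, a calponin of smooth muscle, was the only called gene among 22 contractile targets of SRF (-1.36, list median -0.36). Of these 22, 12 lay below blank in all OE-LINC01134 libraries, against 13.8% of all genes tested.

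Signalling lists held few calls. SMURF1 was the 1 call among 28 TGF-beta genes (median 0.02), ANGPT2 the 1 call among 26 growth factors and receptors (median -0.04), and KLF2, a zinc finger factor of quiescence, the 1 call among 28 AP-1 and immediate early genes, rising from 6.34, 4.79 and 4.11 to 13.9, 12.6 and 14.2 FPKM (1.42, list median -0.25). FZD8, a Wnt receptor, fell (-1.75) as the 1 call among 30 Wnt genes (median -0.31). Of these 30, 12 lay below blank in all OE-LINC01134 libraries, against 13.8% of all genes tested. The 26 YAP/TAZ-TEAD genes (median 0.10) and 20 Notch genes (median -0.03) gave no call. In each list 2 genes were past an unadjusted p under 0.05 and a log2 fold change beyond 1. Among all genes tested 2.45% were past both as higher and 5.0% as lower. LFNG, which glycosylates Notch, was at 10.8, 14.3 and 13.9 FPKM against 0.959, 5.40 and 1.08 (-2.77, adjusted p = 0.069), with OE-LINC01134 2 between the groups.

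Among the inflammatory, interferon-stimulated and HLA class I genes tested, 22.2% of each list had a log2 fold change above 0. A share this low was not particular to them, as it was 9.4% for sterol synthesis genes and 18.5% for NRF2 targets. In other lists the share was far higher, at 84% for DNA replication genes and 80% for p53 pathway genes. The median of all genes tested was 0.05. CCL2, a monocyte chemoattractant, fell from 4.07, 2.89 and 3.62 to 0.365, 0.903 and 0.317 FPKM (-2.63, SE 0.36, adjusted p = 0.0402), the 1 call among 27 NF-kB and cytokine genes. The median of this list was -0.20, and -0.65 without blank 1 and OE-LINC01134 2. CSF2, the growth factor GM-CSF, was at 2.02, 23.4 and 25.1 FPKM in blank and 0.307, 1.07 and 0.400 in OE-LINC01134 cells and did not pass (-4.12, SE 0.98, adjusted p = 0.078). Blank 1 lay far below the other blank libraries in this gene. None of 27 interferon-stimulated genes was called (median -0.47), with 7 lower at an unadjusted p under 0.05. None of 18 HLA class I and peptide loading genes was called either (median -0.41), with 1 lower. The share of all genes lower at that p was 5.0%. RIGI, a sensor of viral RNA, was at 8.09, 7.09 and 7.82 FPKM against 2.43, 4.15 and 2.34 (-1.39, adjusted p = 0.0501, just above the threshold).

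Metabolic and stress lists had medians of either sign. In the sterol and fatty acid synthesis list 21 of 32 tested genes lay below blank in all OE-LINC01134 libraries and none above, with a median of -0.64. Among all genes tested 13.8% lay below and 16.8% above. MVD, an enzyme of the mevalonate pathway, fell from 21.6, 21.6 and 20.2 to 6.73, 11.1 and 6.46 FPKM (-1.42) and SCD, the stearoyl-CoA desaturase, from 105, 92.3 and 94.7 to 41.4, 57.1 and 39.8 FPKM (-1.09, SE 0.16). In the list of ATF4 targets and unfolded protein response genes, FGF21 was the 1 call among 39 (median 0.37), and 16 lay above blank in all OE-LINC01134 libraries while 4 lay below. ASNS, asparagine synthetase, was at 5.77, 6.66 and 5.46 FPKM against 18.7, 10.5 and 17.8 (1.34, adjusted p = 0.051). It lies in the stretch of chromosome 7 described above, as does DNAJB9 of the same list (0.83). None of 37 glycolysis and hypoxia genes was called (median -0.37, 6 lower at an unadjusted p under 0.05). Nor was any of 27 NRF2 targets (-0.27, 4) or 30 p53 pathway genes (0.28, 0). The share of all genes lower at that p was 5.0%. HSPA1B, an inducible HSP70 that shares near-identical sequence with HSPA1A, was the 1 lower gene among 29 heat shock genes (median -0.27), and CTSF and LIPA, both lysosomal hydrolases, fell in a list of 31 (median -0.23).

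Cell cycle lists had positive medians without a higher call. The median was 0.38 over 49 genes of G2/M and mitosis and 0.32 over 50 genes of DNA replication. In all OE-LINC01134 libraries 11 and 13 members lay above blank, against 16.8% of all genes tested. In either list 0 were past an unadjusted p under 0.05 with a log2 fold change beyond 1. In both lists blank 1 lay above blank 2 and 3, by medians of 0.52 and 0.69. CDKN2B was the only call among 16 genes of the cyclin D and CDK inhibitor list (median 0.29). CCND1, cyclin D1, was at 40.5, 29.8 and 29.7 FPKM in blank and 8.29, 17.6 and 8.64 in OE-LINC01134 cells and did not pass (-1.60, adjusted p = 0.060). Of 24 BCL2 family and caspase genes (median -0.08) none was called, with 1 lower at an unadjusted p under 0.05, against 5.0% of all genes.

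The remaining lists were close to the median of all genes, with the mitochondrial genome as the exception. The 79 cytosolic ribosomal protein genes had a median of -0.02, the 75 nuclear-encoded respiratory chain genes of -0.06 and the 26 replication-dependent histone genes of 0.06, with no call in any of them and, of the 3 lists, 1 respiratory chain gene higher at an unadjusted p under 0.05. All 15 members of the mitochondrial genome list had fold changes below 0 (median -0.45), and none was called. In 12 of them all OE-LINC01134 libraries lay below blank, against 13.8% of all genes tested. Of all 37 tested genes of the mitochondrial genome, 1 was called lower. Mitochondrial transcripts took 6.46%, 6.67% and 6.96% of the reads in blank and 4.57%, 5.30% and 4.45% in OE-LINC01134 libraries, and the part of this shift in the other results was not tested. Among 29 other cancer-linked long non-coding RNAs (median 0.15), UCA1 was the 1 call, falling from 10.4, 13.6 and 13.2 to 2.39, 3.20 and 2.26 FPKM (-2.21, SE 0.18, adjusted p = 0.0139).

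**Figure D5:**
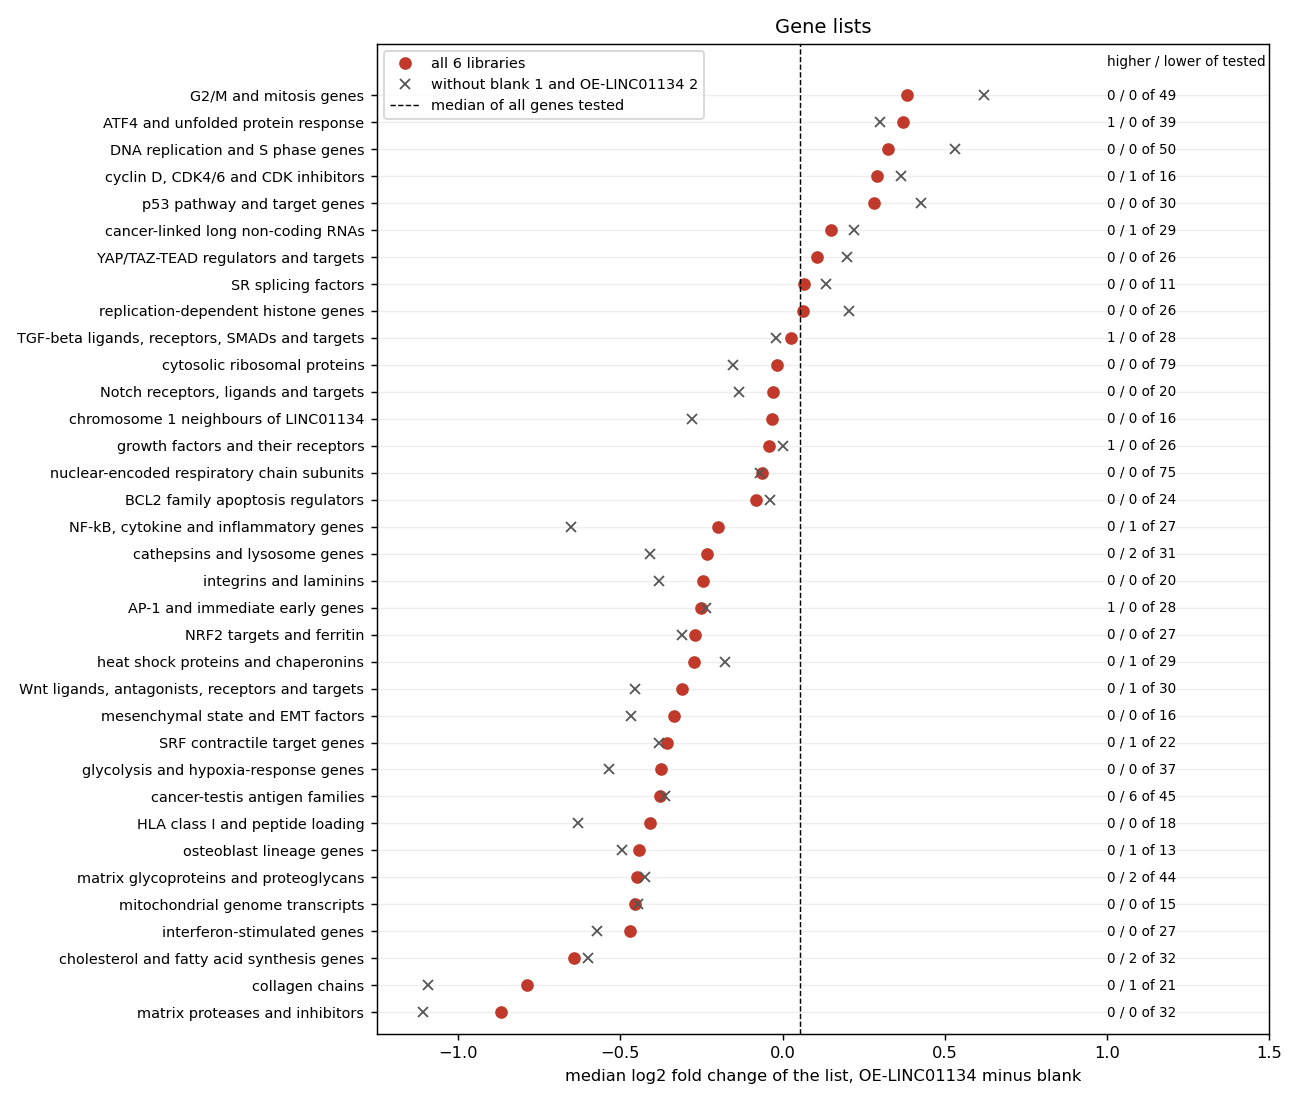
Median log2 fold change (OE-LINC01134 minus blank) of each gene list with all 6 libraries (red) and without blank 1 and OE-LINC01134 2 (grey crosses), with the median of all tested genes as a dashed line. Numbers at the right give the genes called higher and lower of those tested; matrix proteases (-0.87) and collagen chains (-0.79) have the lowest medians and the G2/M list (0.38) the highest.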

How the data were processed

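The authors deposited 1 table of FPKM values per gene, with gene lengths and coordinates. The aligner, the counting program and a human genome build are not given in the sources used here; the labels name mouse builds. Multiplied by gene length, the values of a library were whole multiples of what 1 read is worth (100% within 0.01). This gave reads per gene, and showed that the deposited FPKM carry size factors (median of ratios, all 12 libraries). The chi-square per gene was 3.02 between blank 2 and 3 and 2.21 between OE-LINC01134 1 and 3, above the sampling noise of 1. It was 76.0 and 80.5 between blank 1 and the other blank libraries, and 78.4 and 80.9 between OE-LINC01134 2 and its group. Each library was counted once, but the chi-square cannot tell whether the close pairs were separate cultures. With the close pairs averaged, 1 higher and 0 lower calls were left. The labels name total RNA and a SMARTer kit, whereas the supplementary methods name poly-T selection and a NEBNext kit, so how mRNA was selected is uncertain, and whether strand was kept is not stated.

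R 4.3.3 and limma 3.58.1 (lmFit, eBayes with a trend) compared the 3 OE-LINC01134 with the 3 blank libraries on log2(FPKM + 0.1). Of 58735 genes, the 17538 whose FPKM averaged at least 0.5 in the 12 libraries entered, and the Benjamini-Hochberg adjustment covered all of them. The study's supplementary methods call replicates biological but name fewer per condition than the 3 libraries per group of the series. They do not say whether these were separate cultures, so p-values measure the spread between these libraries. The fit was also run on simulated data with independent noise in every library. Those data held no libraries that stood apart, so they do not show how the calls behave here.

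The members and lists were chosen with earlier results of these data known. Named genes were LINC01134, SRSF1, the 15 higher and 15 lower called genes with the largest change, no overlap between groups, a symbol and a mean FPKM of at least 1, and the 3 members of each list with the smallest p; other genes were named after their values were seen. Of 1337 symbols, 1330 were matched to the table through full gene names. Some genes of the lists are not reported here by name. Splicing was not analysed, and no sequence is printed because no human reference was used here. Alternatives were other pseudocounts, filters, scalings, variance settings, voom on the recovered reads, 1 fit over all groups, a replicate block and the omission of libraries.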

Additional observations from a re-analysis of the deposited data

How the results depend on the processing

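LINC01134 was called, and all 149 called genes kept their sign, in each of the 14 alternatives in which they were followed one by one; the counts moved. Against 45 higher and 104 lower genes, there were 3 and 9 with no filter on low values (40010 genes tested), about 1.7e2 and 515 in 1 fit over all 4 groups, 101 and 247 with limma voom on the recovered reads, and 430 and 877 at the unadjusted p. Higher genes numbered 83 with FPKM rescaled to the same sum, where the median of all genes moved from 0.05 to 0.14, 29 without a trend and 79 with no minimum fold change, and lower genes 68 with a pseudocount of 0.01. Leaving out 1 library gave 1 to 511 higher and 0 to 1029 lower genes. Alternatives chosen after seeing the data gave 895 and 1551 without both libraries that stood apart, and 1 and 0 with the close replicates averaged. The cause of these shifts was not tested, apart from the number of genes or libraries that a setting itself changes. A replicate block left 1 higher and 3 lower genes. Deviations of same-numbered libraries correlated at -0.08, -0.07 and 0.04, so the pairing rests on the number alone. Depth limits the shortest genes, TRBJ2-4 and RNU6-1101P, to at most 8 reads per library.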

Other observations

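Other genes called lower are given here as single genes picked after their values were seen. NLRP3, the inflammasome sensor, was at 2.63, 4.56 and 4.02 FPKM in blank and 0.472, 0.600 and 0.515 in OE-LINC01134 cells (log2 fold change -2.58, limma adjusted p = 0.0199), and NLRP2 fell by 3.31 and HLA-DPB1 by 2.79 on the log2 scale. MT1E, a metallothionein that binds zinc and copper, was the most abundant of the genes described here as lower, at -1.44. GJA1, the gap junction protein connexin 43, was at 9.86, 10.2 and 9.88 FPKM in blank and 3.77, 4.47 and 4.05 in OE-LINC01134 cells (-1.27, adjusted p = 0.0199), with little spread in either group. FKBP1A, the FK506 binding protein, fell by 1.06 and its near-identical copy FKBP1C by 1.23, and reads may be shared between them.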
